A study of Mus musculus with 18 samples.

Results

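The genes described here are the PAR bZIP transcription factors Dbp, Tef and Hlf, their repressive relative Nfil3, and Usp2, a clock-controlled deubiquitinase that is not a transcription factor. These 5 genes were chosen by symbol from the 19057 genes of the deposited liver expression table, after Dbp and Usp2 had been seen to differ between recipients of transferred microbiota and HS livers. All 5 were listed once and all 5 passed the filter on low values, a mean of at least 1 RPKM (reads per kilobase of gene, scaled to library size) over the 18 libraries, which left 10204 genes to test. The study gave male ICR mice a high-fat diet and streptozotocin (STZ), a toxin of the insulin-producing cells of the pancreas, as a model of diabetes in youth. Polyadenylated RNA of the liver was sequenced at 10 weeks of age in 6 groups of 3 libraries.

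Con mice received a regular diet and saline. A10 mice received alginate oligosaccharide (AOS), fragments of a seaweed polysaccharide, at 10 mg/kg. HS mice received the high-fat diet and STZ, and HS+A10 mice received the high-fat diet, STZ and AOS at 10 mg/kg. Mice of A10-FMT and Con-FMT were given the high-fat diet, STZ and microbiota pooled from the small intestine of AOS-dosed or of water-dosed donors, so the recipients of a group shared 1 pool. HS, HS+A10, A10-FMT and Con-FMT thus had diet and STZ in common, and A10 and HS+A10 are known here from the labels alone. Nothing in the labels ties a library to a separate animal, so the p-values measure the spread between libraries, which may be partly technical.

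DBP, TEF and HLF activate genes by binding a DNA element called the D-box, through a basic leucine zipper that the 3 proteins share. NFIL3 (also called E4BP4) lacks the proline- and acid-rich domain of the PAR family and represses through the same element. In the liver these factors relay the circadian clock to enzymes of detoxification, heme, lipid and bile acid metabolism. The clock proteins CLOCK and ARNTL activate Dbp, PER and CRY proteins hold that activation back, and the REV-ERB receptors (Nr1d1 and Nr1d2) repress Arntl and Nfil3. Transcripts of these genes rise and fall with the time of day. The mice lived under alternating light and dark, the hour at which the livers were taken is not given in the sources used here, and hour and group cannot be told apart.

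Dbp lies on chromosome 7 of the mouse genome build GRCm38 (chr7:45705088-45710203, plus strand), Tef at chr15:81802421-81826863 (plus), Hlf at chr11:90336536-90390895 (minus), Nfil3 at chr13:52967209-52981073 (minus) and Usp2 at chr9:44067021-44095627 (plus). RefSeq promoter windows of GRCm38.p6, from 250 bases before to 50 bases after an annotated start, were found for 5 of 5 members, with 2 windows for Tef. They were searched on both strands for the E-box (CACGTG), which CLOCK and ARNTL bind, the E-prime box (CACGTT), the D-box (TTATGNAA) and the core of the ROR and REV-ERB element (TAGGTCA). The windows of Tef, Nfil3 and Dbp are shown because the first 2 hold a match and Dbp varied most between groups. Capitals mark the match, in Nfil3 as TGACCTA, the core read on the other strand.
Tef, first start, chr15:81802423-81802722, plus strand
Tef window 1: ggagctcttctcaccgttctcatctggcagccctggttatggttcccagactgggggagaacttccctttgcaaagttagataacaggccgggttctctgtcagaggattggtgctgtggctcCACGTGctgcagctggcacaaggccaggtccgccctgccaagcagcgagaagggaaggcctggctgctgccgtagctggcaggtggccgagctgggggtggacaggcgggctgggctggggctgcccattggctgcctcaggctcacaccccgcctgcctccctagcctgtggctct
Tef, second start, chr15:81811164-81811463, plus strand
Tef window 2: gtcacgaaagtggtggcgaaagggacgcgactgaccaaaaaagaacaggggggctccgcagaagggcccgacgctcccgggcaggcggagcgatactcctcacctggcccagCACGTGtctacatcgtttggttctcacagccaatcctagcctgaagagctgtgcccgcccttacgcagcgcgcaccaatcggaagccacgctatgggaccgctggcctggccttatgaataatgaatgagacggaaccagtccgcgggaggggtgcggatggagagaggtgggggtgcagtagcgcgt
Nfil3, chr13:52980990-52981289, minus strand
Nfil3 window: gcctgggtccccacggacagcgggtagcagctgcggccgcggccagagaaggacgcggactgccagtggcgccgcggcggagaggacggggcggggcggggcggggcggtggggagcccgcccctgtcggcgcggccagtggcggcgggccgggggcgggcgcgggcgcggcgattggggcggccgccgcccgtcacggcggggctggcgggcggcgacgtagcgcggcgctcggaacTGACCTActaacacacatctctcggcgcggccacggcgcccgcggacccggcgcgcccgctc
Dbp, chr7:45704997-45705296, plus strand
Dbp window: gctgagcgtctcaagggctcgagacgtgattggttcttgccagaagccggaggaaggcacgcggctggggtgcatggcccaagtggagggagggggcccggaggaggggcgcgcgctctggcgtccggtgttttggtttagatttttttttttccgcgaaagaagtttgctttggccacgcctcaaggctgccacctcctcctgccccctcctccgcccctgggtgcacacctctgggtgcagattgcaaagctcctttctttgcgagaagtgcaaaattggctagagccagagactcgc

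The E-box of Tef began at base -127 relative to the first start and at base -138 relative to the second, and the element of Nfil3 at base -12. None of the 4 motifs was found in the windows of Dbp, Hlf and Usp2, which says only that these letters are not in those 300 bases. Of all 32851 mouse promoter windows, 7.15% held the E-box, 4.68% the E-prime box, 3.39% the D-box and 2.61% the core of the ROR and REV-ERB element. Among the core clock genes, of which 10 of 11 had windows, Ciart held 3 E-boxes, Per1 an E-box and a D-box, Per3 2 D-boxes, Cry1 an E-box and an E-prime box, Cry2 and Nr1d1 an E-prime box each, and the second window of Arntl the ROR and REV-ERB core. These matches are descriptions of the sequence, and binding was not measured.

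Some libraries stood apart. The sum of RPKM per library ranged from 692818 to 806937, and how many reads lie behind it is unknown. Judged by the steps between low values of 11 genes, relative depth ranged from 0.956 to 1.04 of the mean, with HS lowest (0.956 to 0.962). The 6 hepatocyte markers summed to 43253 to 68906 RPKM in every library. Con replicate 3 lay between the other 2 Con libraries for 95.3% of 858 genes on which those 2 differed, and A10 replicate 3 for 93.6% of 577 genes, against 23.1 to 72.6% for the remaining libraries. Whether the third libraries of Con and A10 are separate replicates is not known. If they are not, the SDs of these groups and the SEs of the fit are too small. The results were therefore also computed without the third libraries of both groups. Con-FMT replicate 3 carried mRNAs of pancreatic acinar cells, whose 7 markers made up 2.45% of its RPKM (17139 RPKM, against at most 49.8 in any other library). In bulk tissue, fewer cells of a type and less RNA per cell cannot be told apart.

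Dbp was nearly silent in 3 groups and strongly expressed in the other 3. It was at 0.66, 0.58 and 0.68 RPKM in the 3 Con libraries, at 3.41, 0.36 and 1.78 in A10, and at 1.79, 2.22 and 1.17 in HS. It was at 97.5, 47.3 and 52.8 RPKM in HS+A10, at 51.8, 55.5 and 53.0 in Con-FMT, and at 98.8, 48.8 and 86.2 in A10-FMT. Every library of the second set lay above every library of the first, and no other member spanned so wide a range, with a ratio of 122 between the means of A10-FMT and Con. In order, the means were 0.64 ± 0.053 RPKM (SD, n = 3 here and below) in Con, 1.73 ± 0.53 in HS, 1.85 ± 1.53 in A10, 53.4 ± 1.86 in Con-FMT, 65.8 ± 27.5 in HS+A10 and 77.9 ± 26.0 in A10-FMT. HS overlapped with A10, and Con-FMT, HS+A10 and A10-FMT overlapped with their neighbours, while Con lay below HS without overlap.

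Tef, which encodes thyrotroph embryonic factor, followed the same division at a smaller scale. Its values were 5.14, 8.39 and 6.60 RPKM in Con, 14.2, 6.30 and 9.30 in A10, and 9.88, 10.6 and 8.36 in HS, all below 15. In HS+A10 they were 48.7, 26.6 and 33.1 RPKM, in Con-FMT 24.4, 26.6 and 42.3, and in A10-FMT 46.0, 30.4 and 40.0. The highest A10 library (14.2 RPKM) was below the lowest Con-FMT library (24.4 RPKM), and within each set of 3 groups neighbouring ranges overlapped. The highest group mean, 38.8 ± 7.88 RPKM in A10-FMT, was 5.78 times the lowest, 6.71 ± 1.63 in Con.

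Hlf, hepatic leukemia factor, divided the groups differently. It was at 5.84, 5.87 and 5.77 RPKM in Con, 7.28, 5.49 and 6.76 in A10, 6.71, 6.92 and 5.29 in HS and 7.10, 4.31 and 6.65 in Con-FMT. It was at 13.0, 10.7 and 11.3 RPKM in HS+A10 and at 12.5, 10.8 and 10.1 in A10-FMT. Con-FMT, which had high Dbp and Tef, stayed with the low groups for Hlf, and the lowest A10-FMT library (10.1 RPKM) was above the highest A10 library (7.28). The group means differed by a ratio of at most 2.00, between 11.6 ± 1.21 RPKM in HS+A10 and 5.83 ± 0.051 in Con.

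Nfil3, the repressor, mirrored Hlf. It was at 23.7, 21.2 and 23.1 RPKM in Con, 20.2, 26.3 and 22.1 in A10, 14.8, 19.6 and 30.7 in HS and 24.9, 19.9 and 33.3 in Con-FMT. It was at 5.10, 7.94 and 7.81 RPKM in HS+A10 and at 7.89, 14.0 and 5.50 in A10-FMT. All 6 libraries of HS+A10 and A10-FMT were below the other 12, by the narrow margin of 14.0 RPKM in A10-FMT replicate 2 against 14.8 in HS replicate 1. The means ran from 6.95 ± 1.60 RPKM in HS+A10 to 26.0 ± 6.76 in Con-FMT, and the 4 high groups overlapped with their neighbours.

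Usp2 was at 1.31, 2.01 and 1.66 RPKM in Con, 0.82, 0.42 and 0.77 in A10, and 0.56, 1.28 and 0.64 in HS. It was at 13.5, 3.03 and 6.99 RPKM in HS+A10, at 11.7, 6.01 and 9.75 in Con-FMT, and at 9.61, 8.91 and 10.8 in A10-FMT. As with Dbp and Tef, HS+A10, A10-FMT and Con-FMT lay above the rest without overlap, and HS+A10 was the most variable group, with an SD of 5.30 RPKM around a mean of 7.85. Con lay above A10 and HS without overlap, so the order of the low groups differed from that of Dbp, in which Con was lowest.

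**Figure D1:**
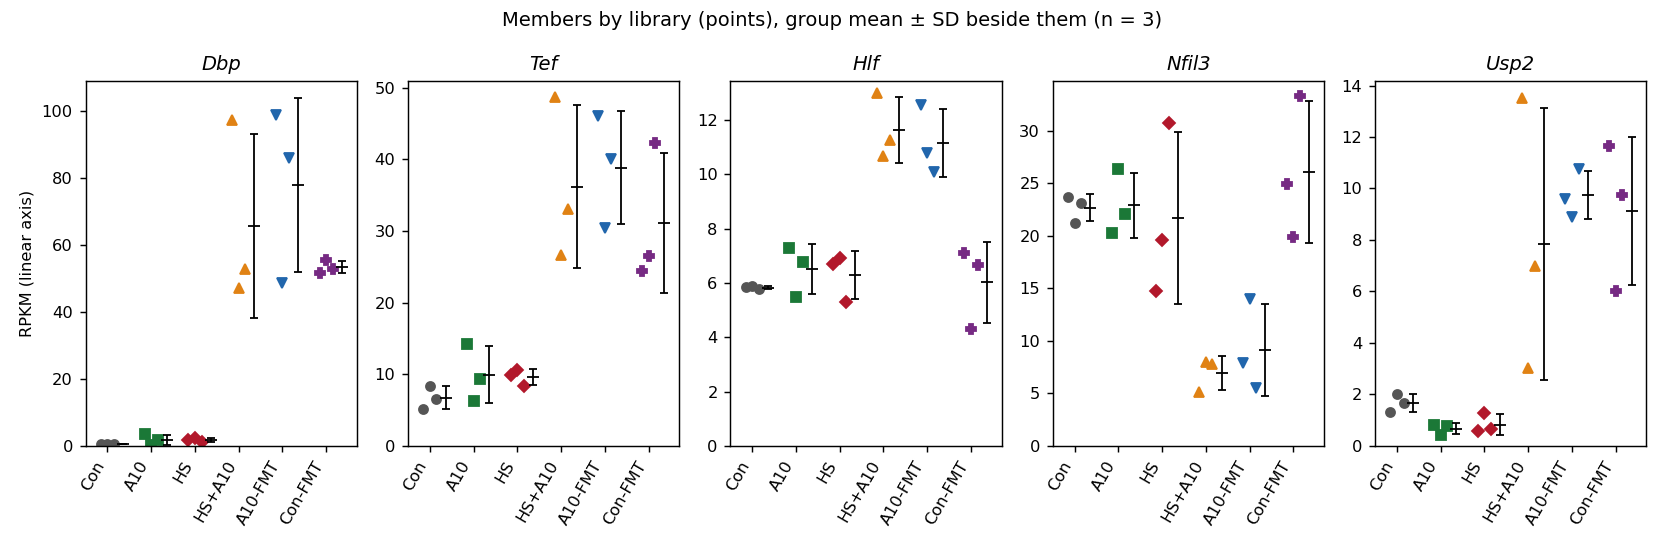
RPKM of Dbp, Tef, Hlf, Nfil3 and Usp2 in each of the 18 libraries (points, linear axes from 0), by group, with the group mean ± SD beside them (n = 3). Dbp, Tef and Usp2 were high in HS+A10, A10-FMT and Con-FMT, whereas Con-FMT grouped with Con, A10 and HS for Hlf (4.31 to 7.10 RPKM) and Nfil3 (19.9 to 33.3 RPKM).

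Because DBP, TEF and HLF share a binding element with NFIL3, their summed transcript level was set against that of Nfil3, per length on the RPKM scale. The sum of the 3 activators was 13.2 ± 1.60 RPKM in Con, 18.3 ± 6.39 in A10 and 17.7 ± 2.55 in HS, and Dbp made up 2.96 to 13.7% of it in those libraries. The sum was 90.5 ± 9.98 RPKM in Con-FMT, 114 ± 40.0 in HS+A10 and 128 ± 34.5 in A10-FMT, where Dbp made up 52.0 to 64.2%. The ratio of the sum to Nfil3 was 0.46 to 1.25 in Con, A10 and HS, 3.06 to 4.34 in Con-FMT, 6.42 to 24.8 in A10-FMT and 10.6 to 31.2 in HS+A10. The groups thus fell into 3 levels of this ratio without overlap between them, with Con-FMT in the middle. Protein levels were not analysed here.

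Groups were compared with limma on log2(RPKM + 1), a scale that understates changes of low genes, over all 10204 genes at an adjusted p under 0.05. For diet and STZ and for AOS alone 0 of the 5 genes were called, a count that says little with so few genes. The ranges of Dbp and Usp2 did not overlap between HS and Con, nor did those of Usp2 between A10 and Con. In HS compared with Con 0 of 5 were called, and 0 had an unadjusted p under 0.05, where 17.7% of all genes were called. P-values of this comparison are not independent of the choice of the genes, for which HS values of Dbp and Usp2 were known. Dbp differed by 0.72 on the log2 scale (SE 0.35, adjusted p = 0.16), Tef by 0.48 (SE 0.28, adjusted p = 0.23) and Usp2 by -0.55 (SE 0.33, adjusted p = 0.25). The 95% interval for Dbp ran from -0.037 to 1.47, and with only Con and HS in the fit Dbp was called (adjusted p = 0.0409). The median of all genes was itself shifted by 0.14, beside differences of 0.091 for Hlf (adjusted p = 0.68) and -0.12 for Nfil3 (adjusted p = 0.79). Under quantile normalization Hlf changed sign (-0.064) and Nfil3 differed by -0.28. Sums in HS and Con did not overlap for stellate cell markers (10.5 to 18.8 RPKM against 7.57 to 8.47), pancreatic acinar markers (14.1 to 27.4 against 32.2 to 41.2) and the 3 erythroid markers (2860 to 9784 against 1228 to 1971), none of them at 0 in every library of a group, and their part was not tested.

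In A10 compared with Con 0 of 5 were called by limma, and 0 had an unadjusted p under 0.05, where 0.0686% of all genes were called (7 genes). Dbp differed by 0.64 (SE 0.35, adjusted p = 0.44), Tef by 0.46 (SE 0.28, adjusted p = 0.48) and Usp2 by -0.67 (SE 0.33, adjusted p = 0.38). Hlf differed by 0.13 (95% interval -0.18 to 0.44) and Nfil3 by 0.0067 (-0.60 to 0.61), and Nfil3 changed sign under quantile normalization (-0.073). The 3 A10 libraries spread widely for Dbp, from 0.36 to 3.41 RPKM, around all 3 Con libraries.

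All 5 genes differed between HS+A10 and HS, the mice given diet and STZ with and without AOS. In HS+A10 compared with HS 5 of 5 were called, 4 higher and 1 lower, where 7.32% of all genes were called. Dbp rose by 4.56 (SE 0.35, adjusted p = 1.26e-05), a 38.1-fold ratio of mean RPKM and the smallest p of all genes tested. Tef rose by 1.77 (SE 0.28, adjusted p = 0.00394, 3.76-fold), Hlf by 0.79 (SE 0.14, adjusted p = 0.00676, 1.85-fold) and Usp2 by 2.11 (SE 0.33, adjusted p = 0.00394, 9.49-fold). Nfil3 fell by 1.47 (SE 0.28, adjusted p = 0.00863), from a mean of 21.7 to 6.95 RPKM. With only HS and HS+A10 in the fit, Nfil3 (adjusted p = 0.063) and Usp2 (adjusted p = 0.071) were no longer called, and Nfil3 was not called without HS+A10 replicate 1 (adjusted p = 0.054). The HS values of Dbp and Usp2 were among those known when the genes were chosen, so these p-values too depend on that choice.

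The same 5 genes were called in HS+A10 compared with A10, where the mice differed by diet and STZ and all received AOS, and where 20.9% of all genes were called. Dbp rose by 4.63 (SE 0.35, adjusted p = 3.34e-06), Usp2 by 2.23 (SE 0.33, adjusted p = 0.000391), Tef by 1.79 (SE 0.28, adjusted p = 0.000504) and Hlf by 0.76 (SE 0.14, adjusted p = 0.00209), while Nfil3 fell by 1.60 (SE 0.28, adjusted p = 0.0013). Both comparisons used the HS+A10 libraries. The difference of means in the second used no library of HS, A10-FMT or Con-FMT, whose Dbp values entered the choice of the genes. Those libraries did enter its SE and p, because the fit over all 18 libraries shares 1 estimate of the spread. Whether the HS+A10 values were in view at that choice is not known. Without the third libraries of Con and A10, all 5 were called in both. Of the 7 marker lists of liver and other cell types, the 5 endothelial markers had sums in HS+A10 (51.4 to 61.3 RPKM) that did not overlap with HS (38.9 to 44.2) or A10 (35.6 to 44.6). Sums in HS+A10 and A10 also did not overlap for the 6 hepatocyte markers (48555 to 50644 RPKM against 59150 to 65653), the 5 stellate cell markers (11.9 to 15.4 against 7.01 to 9.13) and the 7 pancreatic acinar markers (18.8 to 30.2 against 31.0 to 49.8, with 3 and 1 of the 7 at 0 in all libraries of the group). The part of these lists in the results was not tested.

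**Figure D2:**
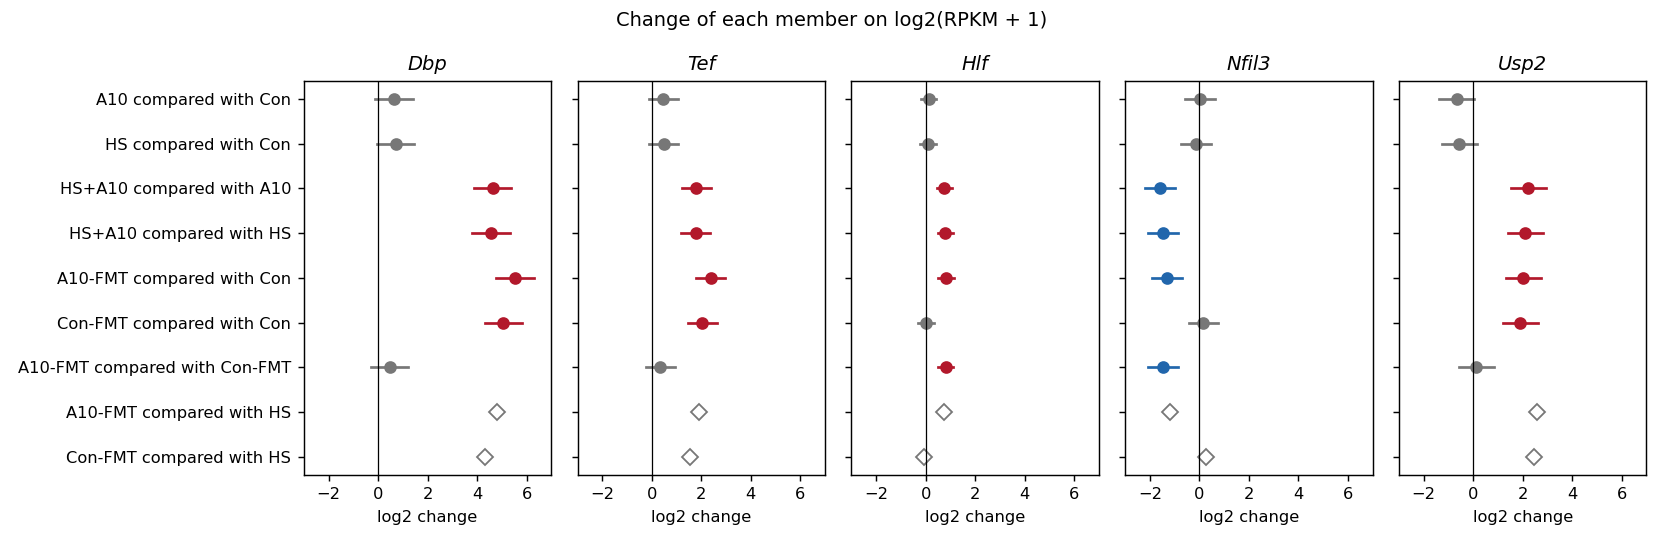
Change of each gene on log2(RPKM + 1), first group minus second, in 9 comparisons, with 95% intervals from limma for the 7 that were tested (red higher and blue lower at an adjusted p under 0.05, grey not called) and open diamonds, with no interval, for the 2 that are descriptions. Hlf and Nfil3 were called in A10-FMT compared with Con-FMT (0.81 and -1.47), and Dbp, Tef and Usp2 were not.

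Whether the effect of diet and STZ differed with AOS was tested as the difference between the change from A10 to HS+A10 and the change from Con to HS. Dbp was called, with a difference of 3.92 (SE 0.50, adjusted p = 0.00978), 1 of 5 members and the 1 gene (0.0098%) called of all 10204. The HS libraries enter this difference, and their Dbp and Usp2 values were among those known when the genes were chosen, so its p-values are not independent of that choice. For Usp2 the difference was 2.78 (SE 0.47, adjusted p = 0.059), for Tef 1.31 (SE 0.39, adjusted p = 0.20), for Hlf 0.66 (SE 0.20, adjusted p = 0.21) and for Nfil3 -1.48 (SE 0.40, adjusted p = 0.17). The call of Dbp was lost without the third libraries of Con and A10 (3.96, adjusted p = 0.158), without HS replicate 3 (3.76, adjusted p = 0.051) and with a pseudocount of 0.1 (4.17, adjusted p = 0.063). Usp2 was called without HS replicate 1 (adjusted p = 0.0314), HS+A10 replicate 1 (0.0434) or HS+A10 replicate 2 (0.00205), and with a pseudocount of 0.1 (0.0353).

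The A10-FMT and Con-FMT libraries were set apart by Hlf and Nfil3. Each group had 1 donor pool, so the kind of microbiota cannot be told apart from the pool or the hour of sampling. In A10-FMT compared with Con-FMT 2 of 5 were called, where 18.8% of all genes were. Hlf was higher by 0.81 (SE 0.14, adjusted p = 0.00151, 1.85-fold) and Nfil3 was lower by a log2 change of -1.47 (SE 0.28, adjusted p = 0.00252), and neither overlapped between the groups. Dbp differed by 0.48 (95% interval -0.28 to 1.23, adjusted p = 0.39), Tef by 0.33 (-0.25 to 0.92, adjusted p = 0.44) and Usp2 by 0.12 (-0.58 to 0.83, adjusted p = 0.83), and all 3 overlapped. Both calls were kept without Con-FMT replicate 3. The recipients' values for Dbp and Usp2 were among those known when the genes were chosen, so the p-values here are not independent of that choice. The 4 cholangiocyte markers summed to 2.09 to 2.64 RPKM in A10-FMT against 3.98 to 7.14 in Con-FMT, the 1 marker list of 7 whose sums did not overlap between these groups. The 6 Kupffer cell markers overlapped, at 47.5 to 91.6 RPKM in Con-FMT against 40.5 to 52.1 in A10-FMT. None of these markers was at 0 in every library of a group, and their part was not tested.

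Against the regular-diet controls, both kinds of recipient had high Dbp, Tef and Usp2. In A10-FMT compared with Con 5 of 5 were called, where 14.3% of all genes were: Dbp rose by 5.53 (SE 0.35, adjusted p = 8.05e-07), Tef by 2.37 (SE 0.28, adjusted p = 0.000108), Usp2 by 2.02 (SE 0.33, adjusted p = 0.00122) and Hlf by 0.83 (SE 0.14, adjusted p = 0.00184), and Nfil3 fell by 1.31 (SE 0.28, adjusted p = 0.0069). In Con-FMT compared with Con 3 of 5 were called, where 25.8% of all genes were: Dbp rose by 5.05 (SE 0.35, adjusted p = 4.2e-07), Tef by 2.04 (SE 0.28, adjusted p = 0.000105) and Usp2 by 1.90 (SE 0.33, adjusted p = 0.000767). Hlf differed by 0.016 (95% interval -0.29 to 0.32) and Nfil3 by 0.16 (-0.44 to 0.77). The same 3 genes were called in Con-FMT without its replicate 3, and both counts were unchanged without the third libraries of Con and A10. The Con libraries are shared by these comparisons, and the recipients' values for Dbp and Usp2 were among those known when the genes were chosen, so these p-values are not independent of that choice. In A10-FMT the sums of Kupffer cell markers (40.5 to 52.1 RPKM against 56.3 to 88.4 in Con), cholangiocyte markers (2.09 to 2.64 against 3.88 to 4.57) and stellate cell markers (9.41 to 13.1 against 7.57 to 8.47) did not overlap with Con, and in Con-FMT those of stellate cell markers (9.48 to 12.6) did not. None of these markers was at 0 in every library of a group, and their part was not tested.

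Relative to HS no test was made, because the genes were chosen with these differences known. The A10-FMT mean was above that of HS by 4.81 for Dbp, 2.58 for Usp2, 1.89 for Tef and 0.74 for Hlf, with -1.19 for Nfil3 and a median of -0.16 over all genes. The Con-FMT mean was above it by 4.34 for Dbp, 2.45 for Usp2 and 1.56 for Tef, with -0.074 for Hlf, 0.29 for Nfil3 and a median of -0.12. The exact two-sided permutation p of each member called in a comparison of groups was 0.1, the smallest that 3 libraries against 3 can give. It was also 0.1 for Dbp and Usp2 in HS compared with Con and for Usp2 in A10 compared with Con, which limma did not call. The permutation p thus does not separate called from uncalled members.

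**Figure D3:**
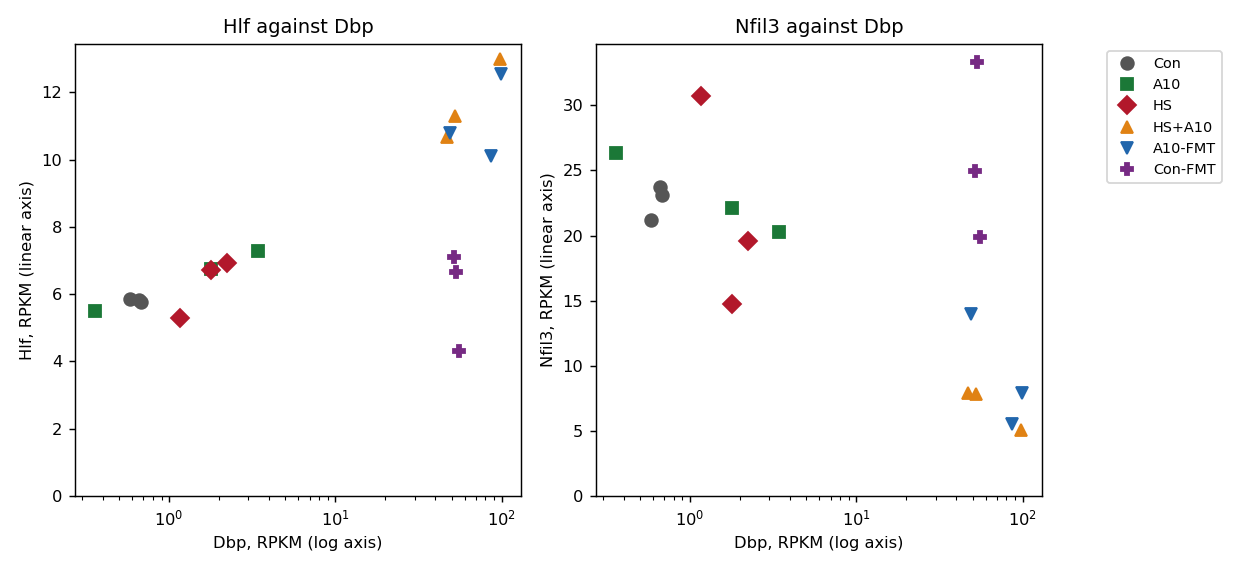
RPKM of Hlf (left) and Nfil3 (right) against RPKM of Dbp (log axis) in the 18 libraries, by group. The 3 Con-FMT libraries combine high Dbp (51.8 to 55.5 RPKM) with low Hlf (4.31 to 7.10) and high Nfil3 (19.9 to 33.3), apart from HS+A10 and A10-FMT.

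The libraries of a group also differed in ways that several members shared. HS+A10 replicate 1 had the highest Dbp, Tef, Hlf and Usp2 and the lowest Nfil3 of its group, and so had A10 replicate 1. In A10-FMT, replicate 2 had the lowest Dbp, Tef and Usp2 and the highest Nfil3 of its group. Across the 18 libraries, deviations of log2(RPKM + 1) from the group means correlated between Dbp and Tef (Pearson r = 0.80), Hlf and Usp2 (0.62), Dbp and Usp2 (0.54), Dbp and Hlf (0.53), and Dbp and Nfil3 (-0.64), and least between Hlf and Nfil3 (-0.12). These are descriptions over libraries that share a normalization. Without the third libraries of Con and A10, Dbp and Tef still had an r of 0.80 and Dbp and Nfil3 one of -0.64.

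Arntl and Npas2 were low where Dbp was high. Arntl, the partner of CLOCK, was at 10.1 to 12.9 RPKM in Con, 11.2 to 12.7 in A10 and 8.84 to 13.4 in HS, and at 1.26 to 4.92 in Con-FMT, 0.91 to 3.11 in A10-FMT and 0.70 to 2.97 in HS+A10. Npas2, which can replace CLOCK, was at 2.90 to 3.48 RPKM in Con, 2.93 to 3.61 in A10, 1.48 to 1.87 in HS and at most 0.64 in the other libraries. It thus passed the filter on low values only through the groups where it was high. In HS+A10 compared with A10, Arntl fell by 2.15 (SE 0.36, adjusted p = 0.00101) and Npas2 by 1.69 (SE 0.17, adjusted p = 2.66e-05), and Clock differed by -0.34 (SE 0.12, adjusted p = 0.057). Of the 6 clock activators 5 were tested, and 2 were lower and 0 higher in that comparison, 3 lower in HS+A10 compared with HS and in A10-FMT compared with Con, and 4 lower in Con-FMT compared with Con. The shares of all genes called were 20.9%, 7.32%, 14.3% and 25.8%. Their median change in HS+A10 compared with A10 was -0.34, beside 0.043 for all genes.

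Repressors of the clock moved in both directions. Of 10 listed, 9 were tested, and 5 were higher and 1 lower in HS+A10 compared with A10, where 20.9% of all genes were called, with a median change of 0.83. Ciart, which represses CLOCK and ARNTL, was at 0.07 to 0.45 RPKM in Con, A10 and HS and at 2.84 to 17.9 in the other 9 libraries, and rose by 2.62 in that comparison (SE 0.37, adjusted p = 0.000292). Per3 rose by 1.84 (SE 0.28, adjusted p = 0.000508) and Cry2 by 0.83 (SE 0.16, adjusted p = 0.00188), while Cry1, another repressor, fell by 1.36 (SE 0.19, adjusted p = 0.000283). Ciart and Per3 had group means of 0.29 to 0.67 RPKM in Con, A10 and HS. They passed the filter on low values only through the groups where they were high, so their calls and their part in the count are not independent of that filter. Per1 differed by 0.78 (adjusted p = 0.13) and Per2 by 0.83 (adjusted p = 0.13). Both period genes were called in Con-FMT compared with Con, where Per1 rose by 2.62 (SE 0.35, adjusted p = 0.000102) and Per2 by 1.29 (SE 0.37, adjusted p = 0.0186).

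The REV-ERB receptors were already higher in A10 and HS than in Con. Nr1d1 was at 1.22, 3.68 and 2.72 RPKM in Con, 30.7, 10.0 and 16.9 in A10, and 17.2, 20.1 and 27.0 in HS, and at 24.7 to 58.5 in the other 9 libraries. Nr1d1 was higher than in Con by 2.45 in A10 (SE 0.36, adjusted p = 0.016) and by 2.71 in HS (SE 0.36, adjusted p = 0.000373). Nr1d2 was higher by 1.39 in A10 (SE 0.17, adjusted p = 0.0076) and by 1.44 in HS (SE 0.17, adjusted p = 0.000177). In A10 compared with Con these were the 2 of 9 tested repressors called, where 0.0686% of all genes were called. Without the third libraries of Con and A10 0 of 9 were called. Relative to A10, Nr1d1 rose by a further 1.55 in HS+A10 (SE 0.36, adjusted p = 0.00671) and Nr1d2 by 1.28 (SE 0.17, adjusted p = 0.0002). In A10-FMT compared with Con-FMT 0 of 9 tested repressors and 0 of 5 tested activators were called by limma (2 and 1 at an unadjusted p under 0.05), where 18.8% of all genes were called. Nr1d1 differed there by -0.15 (adjusted p = 0.81) and Nr1d2 by -0.0034 (adjusted p = 0.99), and their relation to Nfil3 was not tested. Without Con-FMT replicate 3, 1 repressor and 1 activator were called.

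In HS compared with Con, Npas2 was lower by a log2 change of -0.59 (SE 0.17, adjusted p = 0.031). It was 1 of 2 called among 5 tested activators, both lower, where 17.7% of all genes were called. That count lay between 0 and 2 over 17 alternatives and moved in 11 of them. Cry1 was lower by -0.77 (SE 0.19, adjusted p = 0.015). Of the 7 kinases and ubiquitin ligases of the clock, 3 were higher, where 17.7% of all genes were called (1618 higher and 191 lower), and the count lay between 0 and 3 over 17 alternatives. Among the 3 were Fbxw11 (0.38, SE 0.059, adjusted p = 0.00105) and Btrc (0.44, SE 0.12, adjusted p = 0.019), which mark PER proteins for degradation.

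**Figure D4:**
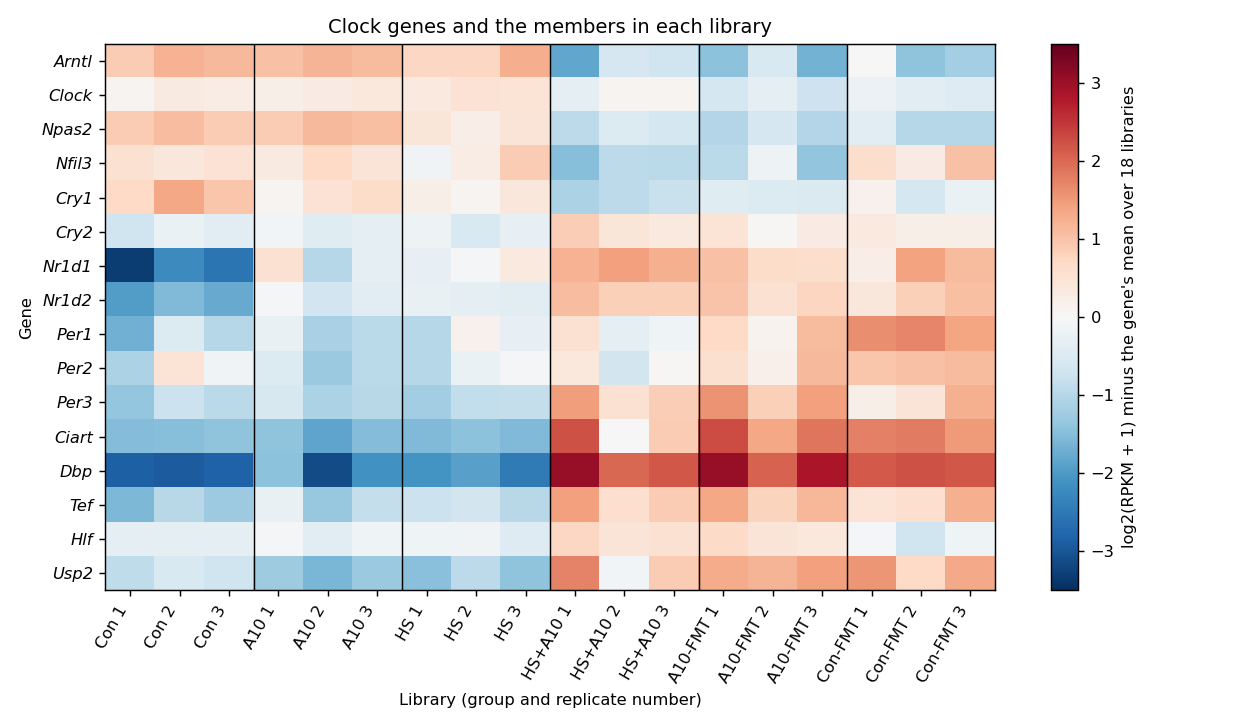
log2(RPKM + 1) of 16 genes in each of the 18 libraries, minus the gene's mean over all libraries (red above, blue below, vertical lines between groups). HS+A10, A10-FMT and Con-FMT are above the mean for Ciart, Dbp and Tef in nearly every library and mostly below it for Arntl and Npas2, and Nfil3 and Hlf separate Con-FMT from the other 2.

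Genes downstream of the clock and of the PAR factors moved less uniformly than Dbp. Of 6 other clock outputs, 4 were called in HS+A10 compared with A10, 3 higher and 1 lower, where 20.9% of all genes were called, with a median change of 0.94. Gys2, the liver glycogen synthase, rose by 1.43 (SE 0.17, adjusted p = 6.71e-05), from 36.5 ± 3.21 to 102 ± 28.4 RPKM, and Wee1, a kinase that delays mitosis, rose by 1.68 (SE 0.25, adjusted p = 0.000423). Wee1 had means of 0.67 to 0.92 RPKM in Con, A10 and HS, so it passed the filter on low values only through the groups where it was high. Lonrf3 fell by 0.78 (SE 0.15, adjusted p = 0.00206), and it was also lower in HS than in Con by a log2 change of -0.49 (adjusted p = 0.036), the 1 of 6 clock outputs called there, a count that fell to 0 in 12 of 17 alternatives. Of all genes 17.7% were called in HS compared with Con. Lonrf3 had means of at most 0.77 RPKM in HS+A10, A10-FMT and Con-FMT, so it passed the filter through the groups where it was high.

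Of the 10 genes listed as liver targets of the PAR factors, 5 were higher and 0 lower in HS+A10 compared with A10, where 20.9% of all genes were called, with a median change of 0.66, and 2 were called without the third libraries of Con and A10. Por, the reductase that supplies electrons to cytochromes P450, rose from 45.4 ± 1.09 to 151 ± 60.7 RPKM (1.63 on the log2 scale, SE 0.29, adjusted p = 0.00131). Cyp2c37, a cytochrome P450, rose from 33.2 ± 3.29 to 80.5 ± 16.2 RPKM (1.24, SE 0.31, adjusted p = 0.0113). These 2 were also higher in HS than in Con: Cyp2c37 by 1.93 (SE 0.31, adjusted p = 0.00136) and Por by 1.02 (SE 0.29, adjusted p = 0.0262). Dbp differed between HS and Con by 0.72 (adjusted p = 0.16) without overlap, and its link to these genes was not tested. In that comparison 3 of the 10 were higher, where 17.7% of all genes were called, and 1 without the third libraries. In HS+A10 compared with HS, Cyp2c37 differed by 0.11 (adjusted p = 0.87) and Por by 0.76 (adjusted p = 0.12), and 2 of 10 were higher, where 7.32% of all genes were called. In A10-FMT compared with Con 5 of 10 were higher, 3 without the third libraries, where 14.3% of all genes were called. In Con-FMT compared with Con 4 of 10 were higher, where 25.8% of all genes were called.

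Other bZIP factors followed another pattern. Of the 6 C/EBP genes, whose proteins bind related elements, 5 were tested. In the comparisons of HS and A10 with Con and of HS+A10 with HS and A10, limma called 0 of them, with 2, 0, 2 and 0 at an unadjusted p under 0.05. The shares of all genes called there were 17.7%, 0.0686%, 7.32% and 20.9%, so 0 of 5 says little. In Con-FMT compared with Con 4 of 5 were higher, where 25.8% of all genes were called, with a median change of 1.23. In A10-FMT compared with Con 2 of 5 were higher, where 14.3% of all genes were called, and the count fell to 1 or 0 in 12 of 17 alternatives. In A10-FMT compared with Con-FMT 4 of 5 were lower, where 18.8% of all genes were called, with a median of -0.84, 3 without Con-FMT replicate 3 and 2 without the third libraries of Con and A10. Cebpd, an acute-phase activator chosen after its values were seen, was at 1.70 ± 0.17 RPKM in Con, 8.01 ± 2.21 in Con-FMT and 3.18 ± 0.76 in A10-FMT (adjusted p = 2.33e-05 for Con-FMT compared with Con).

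Over the 18 libraries, the genes whose log2(RPKM + 1) followed that of Dbp most closely were Tef (Pearson r = 0.98), Ciart (0.96), Per3 (0.96), Gys2 (0.95) and Klhl21 (0.95), and Npas2 (-0.96) and Arntl (-0.95) were among the most opposite. For Tef they were Per3 (0.98), Dbp (0.98) and Gys2 (0.96), and for Usp2 Ciart (0.97), Dbp (0.92) and Per3 (0.92). For Hlf they were Plpp3, a lipid phosphatase (0.93), Syde2 (0.92) and Rab43, a small GTPase (0.92), none of them a clock gene of the lists used here. For Nfil3 they were Efna1, an ephrin ligand (0.91), Mfsd14a (0.90) and Pdia3, a disulfide isomerase of the endoplasmic reticulum (0.90). Among the members themselves the weakest correlation was between Nfil3 and Usp2 (-0.53) and the second weakest between Hlf and Usp2 (0.60). The libraries share groups, so these values describe the 6 groups more than 18 separate points.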

How the data were processed

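Liver RNA-seq of 18 mouse libraries, 6 groups of 3 known from the labels, was analysed as deposited. The authors enriched mRNA with oligo(dT), sequenced it, aligned the reads to genes with SOAPaligner, and the deposited RPKM, computed from the read number per gene, carry 2 decimals. The submitters' processing notes list Bowtie 0.12.2 and the build mm10, without a role. Read numbers are unknown, and no counting error was computed. Of 19057 rows, 26 held a date in place of a symbol and 3 symbols were repeated, none of them a member.

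The 5 members and all lists were chosen with earlier results of these data known. RPKM were transformed as log2(RPKM + 1), and the 10204 genes averaging 1 RPKM or more over 18 libraries were fitted with 1 mean per group in limma 3.58.1 (R 4.3.3), with a variance trend, in place of DEGseq, which takes no account of replicates. P-values are two-sided and adjusted over all genes by the Benjamini-Hochberg method. Comparisons of A10-FMT and Con-FMT with HS are descriptions. The script was tested on simulated data. Genes named are the members, 11 core clock genes, up to 2 called genes per direction in each other list in HS compared with Con and in HS+A10 compared with A10, and the genes most alike to each member. Of the genes this rule gives, 2 are not reported here. Sequences are from RefSeq (GRCm38.p6) and positions from GENCODE (GRCm38), both searched in Python 3.11.15. Same-numbered libraries of different groups correlated between -0.13 and 0.26 (median 0.0067), and other pairs between -0.34 and 0.23 (median -0.0073). An r over 0.1 was found for 12 of 45 same-numbered pairs and 11 of 90 other pairs. The numbers were not used to pair libraries in the main fit, and a replicate block was tried as an alternative. The alternatives tried are given with their effect below. Blood, testis and microbiota were not analysed here.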

Additional observations from a re-analysis of the deposited data

Results flagged for a closer look

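The effect of diet and STZ on Dbp differed between mice dosed with AOS and mice that were not, by 3.92 on the log2 scale (SE 0.50, adjusted p = 0.00978 in limma). Dbp was higher by 4.63 in HS+A10 than in A10, with the 3 HS+A10 libraries above the 3 A10 libraries. Between Con and HS it differed by 0.72 (adjusted p = 0.16), where the 3 HS libraries were also above the 3 Con libraries. It was the 1 gene called of 10204, while 1320 genes had an unadjusted p under 0.05, and Usp2 was the fourth by p (2.78, adjusted p = 0.059). The call was lost without the third libraries of Con and A10 (3.96, adjusted p = 0.158), and the cause was not tested. The p-value is not independent of the choice of the genes, which used HS values of Dbp and Usp2.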

How the results depend on the processing

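The changes of the 5 genes were recomputed in 677 combinations of gene, comparison and alternative. Direction and call were kept in 641, a call was lost in 18 and gained in 5, and the sign turned in 13, all of them changes that were not called. No call changed with the replicate block (Dbp 3.92, adjusted p = 0.00412, in the test of whether the diet effect differed with AOS), without the filter on low values or without the variance trend. A mean of at least 5 RPKM left Usp2 untested.

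The threshold of the paper was an adjusted p of at most 0.001 and a log2 change of at least 1. With it, the members called were 1 in HS+A10 compared with HS and 3 in HS+A10 compared with A10. They were 0 in A10-FMT compared with Con-FMT and 2 in A10-FMT compared with Con. In Con-FMT compared with Con they stayed at 3, and for the differing diet effect they were 0. With only the compared groups in the fit, they were 1 in HS compared with Con and 3 in HS+A10 compared with HS. For the differing diet effect they were 0 without the third libraries of Con and A10, an alternative chosen after seeing the data, and 0 to 2 with 1 library left out. The cause was not tested. The threshold of the paper is stricter for every gene. The shares of all genes called under these alternatives are not given here, so the counts are not read as results about the members. Signs turned for Hlf in HS compared with Con (-0.064 under quantile normalization, -0.070 under median scaling) and in Con-FMT compared with Con (-0.021 and -0.047, and -0.099 to 0.21 with 1 library left out). They turned for Nfil3 in A10 compared with Con (-0.073 and -0.072, and -0.094 to 0.087 with 1 library left out), in HS compared with Con (-0.39 to 0.11) and in Con-FMT compared with Con (-0.023 to 0.33), and for Usp2 in A10-FMT compared with Con-FMT (-0.12 to 0.31). Over all alternatives, which also differed in the number of genes tested, the genes called lay between 39 and 1800 in HS compared with Con (1809 as reported), 0 and 72 in A10 compared with Con (7), 2 and 1233 in HS+A10 compared with HS (747), 132 and 2465 in HS+A10 compared with A10 (2131), 80 and 2260 in A10-FMT compared with Con-FMT (1914), 73 and 1857 in A10-FMT compared with Con (1464), 241 and 2983 in Con-FMT compared with Con (2637), and 0 and 118 for the differing diet effect (1). A pseudocount of 0.1 widened the untested differences from HS, for Dbp to 5.40 in A10-FMT and 4.92 in Con-FMT and for Usp2 to 3.49 and 3.34. Values near 0.5 RPKM rest on few reads of unknown number, which limits the ratios of Dbp and Usp2 to Con, A10 and HS.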
